A study of Mus musculus with 6 samples.

Results

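The Sprouty, Spred and Errfi1 genes encode feedback inhibitors of receptor tyrosine kinases. The 7 mouse genes Spry1, Spry2, Spry4, Spred1, Spred2, Spred3 and Errfi1 were followed here through every array probe whose only gene symbol was one of these names, which gave 11 of the 29456 single-symbol probes and 7 of the 18793 named genes in the fit. The treated cells were C3H10T1/2 cultures given 1 µM dexamethasone, a synthetic agonist of the glucocorticoid receptor, for 90 minutes (3 arrays). The control cultures of the same line received the solvent DMSO, called vehicle in the text (3 arrays). C3H10T1/2 is a mouse mesenchymal line, grown here in medium with serum, so growth factors of serum were present in both groups. Each array carried 1 culture's cDNA in Cy3 and a common RNA pool in Cy5, and the deposited values were read as log2 ratios between sample and pool. The labels list DMSO, dexamethasone and myostatin cultures of the line as sources of that pool, whereas the series text names only vehicle and treated cells.

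Receptor tyrosine kinases such as the EGF, FGF and PDGF receptors switch on Ras and the kinase chain that ends in ERK. Sprouty and Spred proteins act inside the cell on this chain: Sproutys interfere with the steps between receptor and Raf, and Spreds bring the Ras inhibitor neurofibromin to the membrane. Errfi1, also named Mig6 or RALT, binds the kinase domain of the EGF receptor family and blocks its activity. Growth factor signalling itself induces many of these genes, which makes them feedback inhibitors, and Errfi1 was described in rat cells as a glucocorticoid-inducible gene.

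The arrays were uneven. Their median log2 ratios ran from -0.12 to 0.57. Values equal to a ratio of whole numbers up to 10, as very dim spots give, made up 1.86% to 3.79% of the values on dexamethasone 1, vehicle 1 and vehicle 2 (array set A) and 7.73% to 12.7% on dexamethasone 2, dexamethasone 3 and vehicle 3 (array set B). No label names these sets. Across all probes, Spearman coefficients were 0.340 to 0.574 between arrays of the same set and -0.330 to 0.073 between sets. The median dexamethasone minus vehicle difference of all single probes was 0.24, with -0.04 within set A and 0.21 within set B. Differences are therefore given as deposited, and for some of the member probes also relative to that 0.24. A further scale subtracts every array's own median before the groups are compared, called centring in the text. Which channel was the numerator is not stated. Sample over pool is likely, since 5 of 6 textbook glucocorticoid-induced genes (Dusp1, Fkbp5, Per1, Tsc22d3 and Sgk1, but not Zbtb16) were higher with dexamethasone as deposited. In set A, Dusp1 read 1.32 with dexamethasone, against -2.84 and -2.67 with vehicle. In set B it read 1.55 and 1.52 with dexamethasone, against -2.88 with vehicle, so both sets ran the same way for this gene. The numerator common to all arrays is not given by any label, and the direction is therefore called likely and not settled. With the sign turned, all directions in the text would change places, with differences of -2.47 for Errfi1, 0.96 for Spry2, 0.45 for Spred1, -0.37 for Spry1, -0.54 for Spry4, -0.47 for Spred2 and -0.65 for Spred3. Of 10 mesenchymal marker genes, 9 had a probe free of dim or missing spots on every array, against 2 of 8 blood, endothelial and epithelial markers. The mesenchymal markers had a median difference of -0.47 with 8 of 10 below 0 (Twist1 at -0.98, Thy1 at 1.28). The other markers had a median of 1.02 with 7 of 8 above 0, next to 0.24 over all named genes. At an unadjusted limma p under 0.05, 1 mesenchymal marker was lower and 0 higher, and 0 of the other markers differed. The shares of all genes and unnamed probes were 0.995% lower and 4.43% higher. The part of the markers in the results was not tested. Ratios to a pool give no absolute level, so neither these genes nor the members can be ranked by abundance. In bulk cultures, fewer cells of a type and less RNA per cell cannot be told apart.

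Errfi1 was the member with the widest separation between the groups. Its probe mMC022390 read 1.11, 0.75 and 0.80 on dexamethasone arrays 1, 2 and 3, against -1.81, -2.01 and -1.88 on vehicle arrays 1, 2 and 3. All dexamethasone values lay above 0 and all vehicle values below it, with a gap far wider than the spread within either group. The means were 0.88 ± 0.19 with dexamethasone and -1.90 ± 0.11 with vehicle (SD, n = 3 each), a 6.89-fold higher ratio with dexamethasone. The log2 difference was 2.78 ± 0.18 (SE; 95% interval 2.32 to 3.25), which is 2.54 above the median of all probes. Within array set A the difference was 3.02 and within set B it was 2.65, so it was of similar size in both. By p the probe ranked 5 among 36465.

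With limma and Benjamini-Hochberg adjustment over all 36465 probes, mMC022390 had an adjusted p of 0.0977 and did not pass 0.05. In that fit 0 probes passed (0% of all, and 0 of the 11 member probes), with 2119 at an unadjusted p under 0.05. After probes with a missing, whole-number-ratio or over-10 value on any array were left out, 44 of 23112 probes (0.19%) passed, and mMC022390 was among them with a limma adjusted p of 0.0273. It was the only one of the 10 member probes left that passed. The limma adjusted p after that filter was 0.0227 without dexamethasone 1, 0.0660 without dexamethasone 2, 0.0907 without dexamethasone 3, and 0.342, 0.370 and 0.284 without vehicle 1, 2 and 3. On the same filtered probes it was 0.0963 with the array set as a block and 0.0599 after centring. These alternatives on filtered probes were chosen after seeing the data. Without the filter, leaving out dexamethasone 1 gave a limma adjusted p of 0.0461, where 140 of 32231 probes passed. Both dexamethasone arrays left there belong to set B. Leaving out dexamethasone 2 or 3 gave 0.22 or 0.214, and vehicle 1, 2 or 3 gave 0.878, 0.937 or 0.392. Over all probes and arrays the limma adjusted p was 0.286 with the array set as a block and 0.668 after centring. It was 0.785 after quantile normalization and 0.695 with the replicate number as a block. The difference itself stayed between 2.48 and 2.85 in 22 other settings, several of which cannot change it or repeat the same value.

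A second Errfi1 probe, mMC008012, gave another picture. It read -0.68, 4.69 and 3.81 on dexamethasone arrays 1, 2 and 3, against -0.14, -0.58 and 2.05 on vehicle arrays 1, 2 and 3. Both treatments were high on the arrays of set B and low on those of set A, and the groups overlapped. Its difference was 2.16 ± 1.65 (SE), with a 95% interval from -2.06 to 6.39 and a limma adjusted p of 0.695; it was -0.32 within set A and 2.20 within set B, 3.81 without dexamethasone 1 and 1.12 without dexamethasone 2. The platform annotation ties mMC008012 to 1 cDNA accession and mMC022390 to 7, among them that same accession. Averaging both probes gave Errfi1 means of 1.75 ± 1.34 with dexamethasone and -0.73 ± 0.72 with vehicle (SD, n = 3 each). The gene-level difference of 2.47 ± 0.80 (SE) had a limma adjusted p of 0.732, and the average carried the wide spread of mMC008012.

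**Figure D1:**
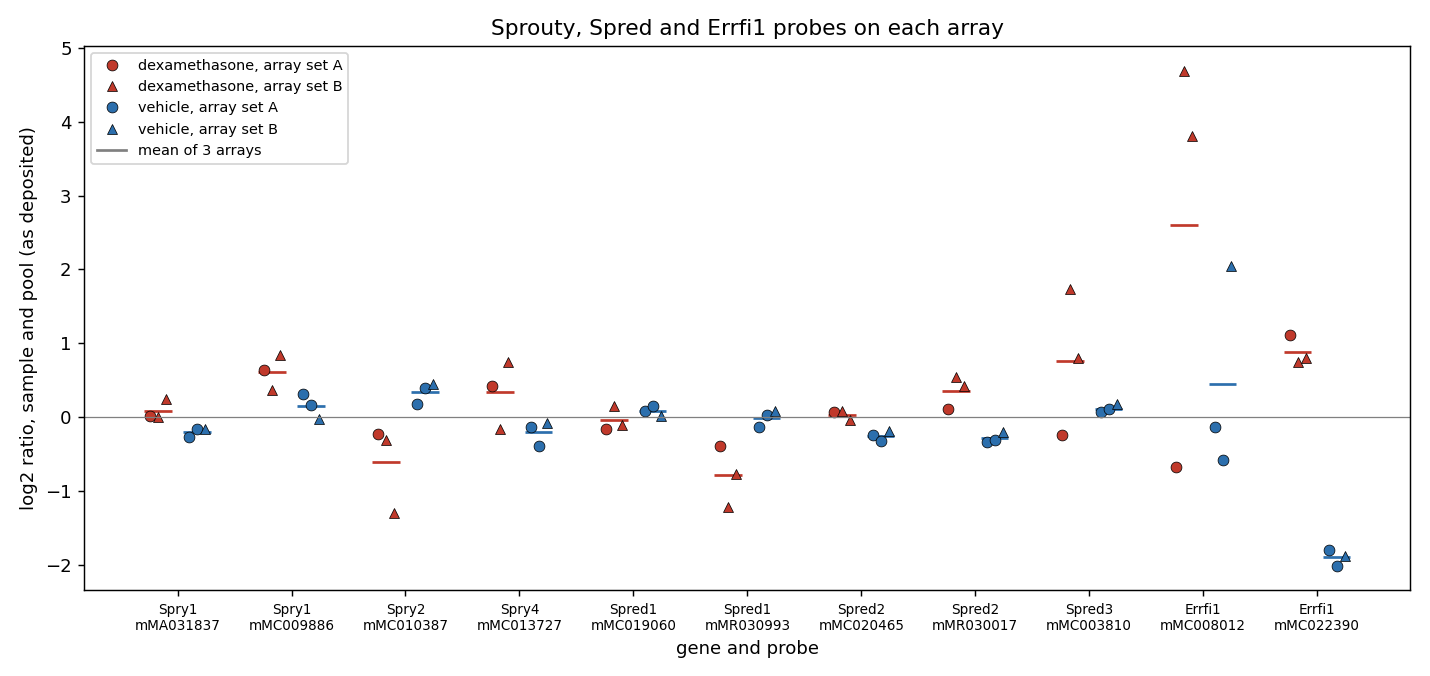
The vertical axis gives the deposited log2 ratio of sample and pool, and each column is 1 of the 11 probes, with dexamethasone arrays in red left of vehicle arrays in blue; circles are array set A, triangles set B and lines the means of 3 arrays. For Errfi1 mMC022390 the dexamethasone points sit between 0.75 and 1.11 and the vehicle points between -2.01 and -1.81, while mMC008012 splits by array set.

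The start regions of the members were searched for short motifs in the RefSeq promoter table (build GRCm38.p6), each window running from 250 bases before to 50 after an annotated start. It held 7 windows for 6 of the 7 genes, with 2 for Errfi1. The window of Errfi1 at chr4:150854820-150855119 (plus strand) is shown because this gene had the largest difference; capitals mark the cAMP response element TGACGTCA, whose first base lies 51 bases before the start, and the TATA box TATAAA, 28 bases before it.

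Errfi1: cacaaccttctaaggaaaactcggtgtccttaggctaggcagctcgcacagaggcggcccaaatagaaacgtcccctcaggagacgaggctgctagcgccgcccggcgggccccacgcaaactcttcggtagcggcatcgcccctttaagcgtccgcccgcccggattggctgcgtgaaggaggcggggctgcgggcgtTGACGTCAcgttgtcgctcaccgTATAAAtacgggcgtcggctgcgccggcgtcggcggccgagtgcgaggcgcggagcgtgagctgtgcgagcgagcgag

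The element TGACGTCA, read on both strands, occurred in 1.79% of all 32851 windows, and TATAAA, read on the table's strand, in 8.32%. No other member window held either. The glucocorticoid receptor motif AGAACA occurred in 19.0% of all windows and in 0 of the 7 member windows, and its paired form (AGAACA, 3 bases, then TGTTCT) in 0.00913% and 0 of 7. The E-box CACGTG (7.15% of all windows), the AP-1 site TGANTCA (7.81%) and the ETS site CCGGAAGT (3.89%) were also found in 0 of the 7, on either strand. These matches describe letters in short windows and say nothing about binding there or elsewhere.

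Among the Sprouty genes, Spry2 was lower with dexamethasone, while Spry1 and Spry4 were higher as deposited, Spry1 by little more than the shift of all probes. None of the 3 passed. Spry2, an inhibitor of FGF and EGF receptor signalling to ERK, read -0.23, -0.31 and -1.31 on dexamethasone arrays 1, 2 and 3, against 0.18, 0.39 and 0.45 on vehicle arrays 1, 2 and 3. All dexamethasone values lay below all vehicle values, and dexamethasone 3 was by far the lowest. The means of -0.62 ± 0.60 with dexamethasone and 0.34 ± 0.15 with vehicle (SD, n = 3 each) correspond to a 1.94-fold lower ratio with dexamethasone. The difference of -0.96 ± 0.35 (SE; 95% interval from -1.84 to -0.07 in the probe fit) was -1.20 relative to all probes and had a limma adjusted p of 0.694, so it did not pass. It was -0.51 within set A, -1.26 within set B and -0.61 without dexamethasone 3.

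Spry1, which restrains Ras-ERK signalling downstream of FGF and RET receptors, was measured by 2 probes, both higher with dexamethasone. Probe mMC009886 read 0.64, 0.37 and 0.84 on dexamethasone arrays, against 0.32, 0.16 and -0.03 on vehicle arrays. Probe mMA031837 read 0.01, 0.00 and 0.25 on dexamethasone arrays, against -0.27, -0.16 and -0.17 on vehicle arrays. In both, every dexamethasone value exceeded every vehicle value, by small margins. Their differences were 0.46 ± 0.21 and 0.29 ± 0.16 (SE), or 0.22 and 0.05 above the median of all probes, each with a limma adjusted p of 0.694. Once every array was centred on its median they were 0.15 and -0.02 and the groups overlapped. Averaged over both probes, the 95% interval of the Spry1 difference ran from -0.10 to 0.85.

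Spry4, another inhibitor acting between receptor and Raf, read 0.43, -0.16 and 0.74 on dexamethasone arrays, against -0.13, -0.39 and -0.08 on vehicle arrays. Dexamethasone 2 fell among the vehicle values, so the groups overlapped. The difference was 0.54 ± 0.29 (SE; 95% interval from -0.20 to 1.27, limma adjusted p = 0.694), 0.23 after centring of the arrays and 0.33 without dexamethasone 3.

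Among the Spred genes, Spred1 was lower and Spred2 slightly higher with dexamethasone, with the probes of each gene differing in size. Spred1 carries the domain that brings neurofibromin to Ras, and its loss of function in humans causes Legius syndrome. Its probe mMR030993 read -0.39, -1.21 and -0.77 on dexamethasone arrays, against -0.14, 0.03 and 0.09 on vehicle arrays. These groups did not overlap, and the difference of -0.78 ± 0.26 (SE; 95% interval from -1.45 to -0.12) was -1.03 relative to all probes. Its other probe, mMC019060, read -0.16, 0.15 and -0.11 on dexamethasone arrays, against 0.08, 0.15 and 0.01 on vehicle arrays. Here the groups overlapped and the difference was -0.12 ± 0.17 (SE), with -0.06 without dexamethasone 1 and -0.22 without dexamethasone 2. The annotation gives these probes no accession in common. Neither passed, with limma adjusted p of 0.694 for mMR030993 and 0.783 for mMC019060. The difference of mMR030993 was -0.34 within set A and -1.08 within set B.

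Spred2, which like Spred1 suppresses ERK activation by growth factors, was higher on both of its probes. Probe mMR030017 read 0.11, 0.54 and 0.43 on dexamethasone arrays, against -0.33, -0.31 and -0.20 on vehicle arrays. Probe mMC020465 read 0.07, 0.08 and -0.04 on dexamethasone arrays, against -0.24, -0.33 and -0.19 on vehicle arrays. Both sets of values were separate between the groups, and the spread within vehicle was small. The difference of mMR030017 was 0.64 ± 0.19 (SE; 95% interval 0.17 to 1.12), a 1.56-fold higher ratio with dexamethasone, and that of mMC020465 was 0.29 ± 0.15 (SE), each with a limma adjusted p of 0.694. After centring of the arrays mMR030017 kept non-overlapping groups with 0.34, whereas mMC020465 stood at -0.02.

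Spred3, the Spred whose Kit-binding domain is not functional, read -0.25, 1.74 and 0.81 on dexamethasone arrays, against 0.07, 0.10 and 0.17 on vehicle arrays. Dexamethasone 1 was below all vehicle values and the other dexamethasone arrays above them. The difference was 0.65 ± 0.53 (SE, 95% interval from -0.71 to 2.01, limma adjusted p = 0.699), with -0.34 within set A and 1.10 within set B. It was 0.34 after centring and -0.09 after quantile normalization of the arrays. Without dexamethasone 1 it was 1.16 and without dexamethasone 2 it was 0.16. Its single probe had a whole-number-ratio, missing or over-10 value on 1 array, the only member probe for which that was so.

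**Figure D2:**
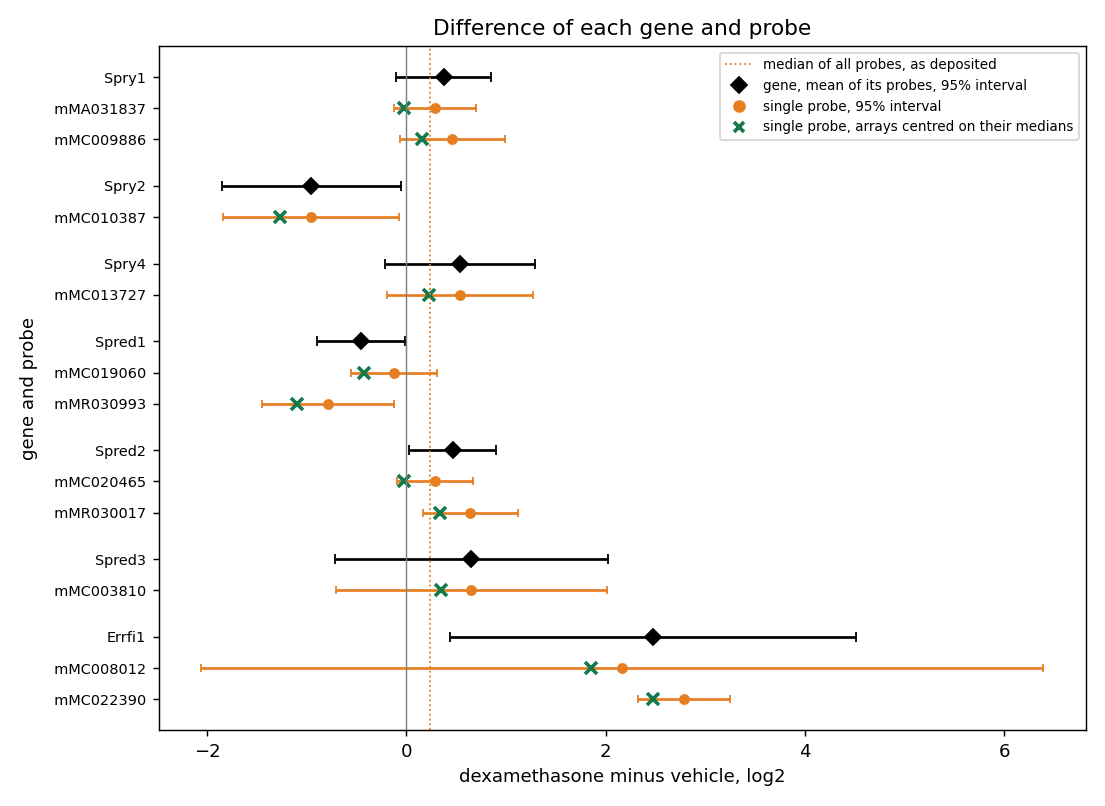
The horizontal axis gives the dexamethasone minus vehicle difference in log2 units for each gene (black diamonds) and probe (orange circles), with 95% limma intervals; green crosses are the same probes after centring, and the dotted line is the median of all probes. Errfi1 mMC022390 lies at 2.78 with an interval of 2.32 to 3.25, and Spry2 and Spred1 mMR030993 lie left of 0 on both scales.

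The members lay on both sides of the vehicle values. As deposited, 5 of the 11 probes had all dexamethasone values above all vehicle values (both of Spry1, both of Spred2 and mMC022390 of Errfi1), against 10.3% of the 31071 probes with a value on every array. The opposite order held for 2 of the 11 (Spry2 and mMR030993 of Spred1), against 8.42% of all. After each array was centred, the counts were 2 higher and 2 lower of 11, against 5.11% and 3.99% of all probes. The 4 probes that kept apart on both scales were mMC022390 of Errfi1, mMR030017 of Spred2, Spry2 and mMR030993 of Spred1. At an unadjusted limma p under 0.05 there were 2 higher member probes and 2 lower, the same 4, against 4.45% and 1.36% of all probes. An exact permutation test of a single probe with 3 against 3 arrays cannot give a p below 0.1 and was not used.

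Averaged per gene, 0 of the 7 members passed in limma, as did 0 of the 27046 genes and unnamed probes (0%), of which 1468 had an unadjusted p under 0.05. At an unadjusted p under 0.05, Errfi1 (0.0261) and Spred2 (0.0403) were higher, against 4.43% of all, and Spry2 (0.0413) and Spred1 (0.0467) lower, against 0.995% of all; the limma adjusted p of each was 0.732. The median difference of the 7 genes was 0.47, next to 0.32 over all genes and unnamed probes and 0.24 over the named genes alone. Of the 7, 5 were above that 0.32. After centring the median of the 7 was 0.16, and after quantile normalization 0.03, next to 0.02 and -0.03 over all genes and unnamed probes. For Spry2, Spred1 mMR030993, Spred3 and Errfi1 mMC008012 the difference was larger in size within set B than within set A, as given above. The same held for Spry1 mMA031837 (0.29 against 0.23), Spry1 mMC009886 (0.63 against 0.40) and Spred2 mMR030017 (0.69 against 0.43). It was smaller in size within set B for Errfi1 mMC022390, Spry4, Spred1 mMC019060 and Spred2 mMC020465. The part of the array sets in these differences was not tested.

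**Figure D3:**
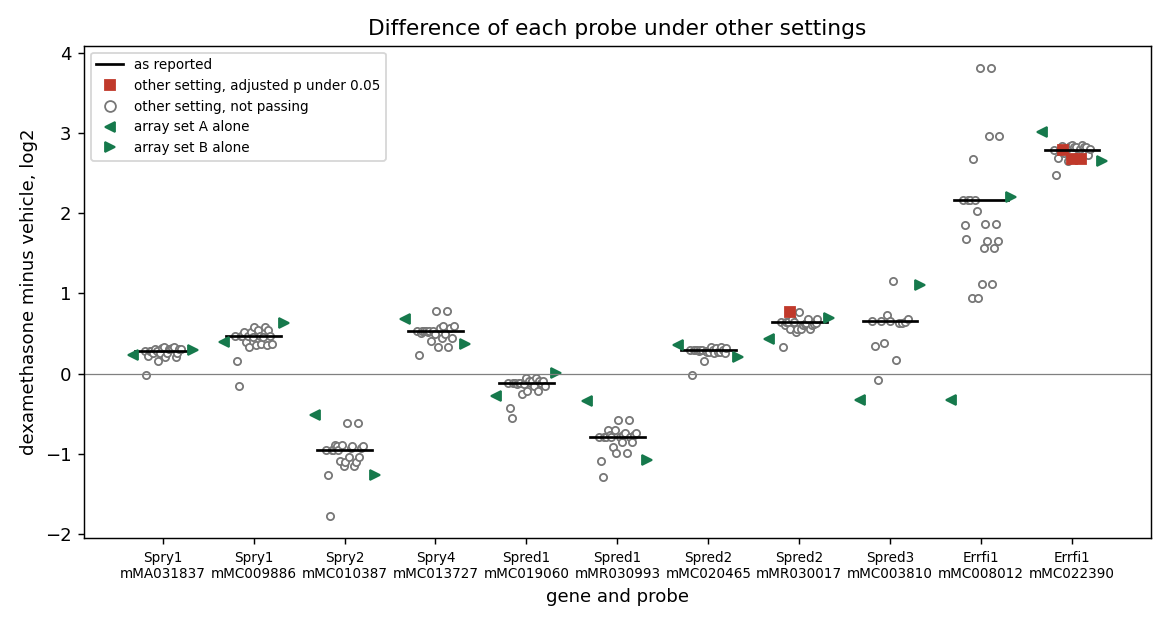
The vertical axis gives the dexamethasone minus vehicle difference in log2 units for each probe under other settings (other normalizations, filters, blocks and left-out arrays); black lines are the values as reported, red squares settings with a limma adjusted p under 0.05, and green triangles array sets A and B alone. Errfi1 mMC022390 stays between 2.48 and 2.85 outside the single-set values of 3.02 and 2.65, and passes in 3 settings.

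The genes whose profile over the 6 arrays was most like each member were found by the root mean square distance between log2 ratios centred on each gene's own mean. Among about 13025 named genes free of dim spots, the nearest to Spry2 were Kctd5 (0.095), Dapp1 (0.102) and Mospd1 (0.121), and the nearest to Spred1 were Mtmr10 (0.0349), Arih2 (0.0418) and Heatr5a (0.0430). Spry1 was closest to Foxp1 (0.0471), Spry4 to Pmepa1 (0.0701), Spred2 to St6gal1 (0.0309) and Spred3 to Gucd1 (0.0925). The averaged Errfi1 profile was nearest to Itgb6 at 0.262, Lce1e at 0.269 and Dnali1 at 0.299. The distance is not scaled to the size of a profile, and Errfi1 had the largest difference of the members. Distances of different members therefore cannot be set against each other. For probe mMC022390 alone, a comparison added after its values were seen, the nearest of 23111 other probes belonged to Gclc (0.190), Rgs2 (0.202 and 0.209) and Tcim (0.211 and 0.215), with differences between 2.48 and 2.94. These distances describe 6 arrays and carry no test.

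The rest of the receptor kinase pathway was followed through lists of 74 other measured genes. After adjustment over all genes in limma, 0 of them passed, with 1468 of all 27046 at an unadjusted p under 0.05 (4.43% higher and 0.995% lower). Of 12 receptor genes, 0 had an unadjusted p under 0.05. Pdgfrb, a PDGF receptor, differed by -0.46 ± 0.22, Pdgfra by 0.38 ± 0.23 and the VEGF receptor gene Kdr by 1.77 ± 1.27 (SE). The median of the receptors was 0.23, below the 0.32 of all genes and unnamed probes but close to the 0.24 of the named genes alone. Of 18 ligand genes measured, 4 were lower at an unadjusted p under 0.05 and 0 higher, with a median of -0.14. Fgf7, a growth factor made by mesenchymal cells, averaged -0.36 ± 0.25 with dexamethasone and 0.44 ± 0.14 with vehicle (SD, n = 3 each), a difference of -0.80 ± 0.21 (SE). The EGF receptor ligand Ereg differed by -0.72 ± 0.20 and Btc, another ligand of that receptor, by -0.72 ± 0.27, the last named after its values were seen because it completes the 4; Pdgfa differed by -0.45 ± 0.17 (SE). Every dexamethasone value of these 4 ligands lay below every vehicle value. Hgf, with an unadjusted limma p of 0.171, had the same order, which makes 5 of the ligands. Over all single probes with 6 values that order held for 8.42%. The 4 were picked by p, so their order is no further support.

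Among 12 measured genes of the Ras-ERK core, 0 had an unadjusted p under 0.05 and the median was 0.17. The 3 with the smallest p were Braf (0.49 ± 0.25), Map2k2 (0.36 ± 0.22) and Gab1 (0.48 ± 0.30, SE), which encode a Raf kinase, a MEK kinase and an adaptor. Braf, averaged over 4 probes, stood at -1.72 once dim probes were left out (limma adjusted p = 0.578), so it has no settled direction. Of 15 other inhibitors of the pathway, 1 was higher and 2 were lower at an unadjusted p under 0.05, against 4.43% and 0.995% of all. Their median was -0.05. Il17rd, the FGF receptor inhibitor also named SEF, averaged -0.34 ± 0.05 with dexamethasone and 0.38 ± 0.11 with vehicle (SD, n = 3 each). The difference of -0.72 ± 0.17 (SE) had a limma adjusted p of 0.581. The ERK phosphatase gene Dusp4 differed by -1.40 ± 0.43 (SE), and by -2.34 with a limma adjusted p of 0.0748 once dim probes were left out; Dusp7, which encodes another ERK phosphatase, differed by 0.60 ± 0.23 (SE).

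Of 7 genes of Sprouty or Errfi1 binding partners, 0 had an unadjusted p under 0.05 and the median was -0.14; Dyrk1a, a kinase that binds Sprouty2, differed by -0.33 ± 0.19, Mknk1 by 0.46 ± 0.28 and Ppp2ca, the catalytic subunit of protein phosphatase 2A, by -0.31 ± 0.19 (SE). Of 10 genes that ERK signalling is known to induce, 1 was higher and 2 were lower at an unadjusted p under 0.05. The shares of all were 4.43% and 0.995%, and the median of the 10 was 0.06. Etv5, an ETS factor induced by FGF signalling, averaged -0.19 ± 0.19 with dexamethasone and 0.60 ± 0.04 with vehicle (SD, n = 3 each), a difference of -0.79 ± 0.19 (SE; limma adjusted p = 0.581). Egr1 differed by -0.96 ± 0.24 and Myc by 0.56 ± 0.18 (SE). The named genes of these lists kept their sign after median centring and after quantile normalization, with the exception of Mknk1, which stood at -0.10 after quantile normalization. The filter for missing, whole-number-ratio or over-10 values turned Braf as given above and left Pdgfra without a value. After it Mknk1 stood at 0.88 and the other named genes kept their sign. Some listed genes were not analysed here.

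**Figure D4:**
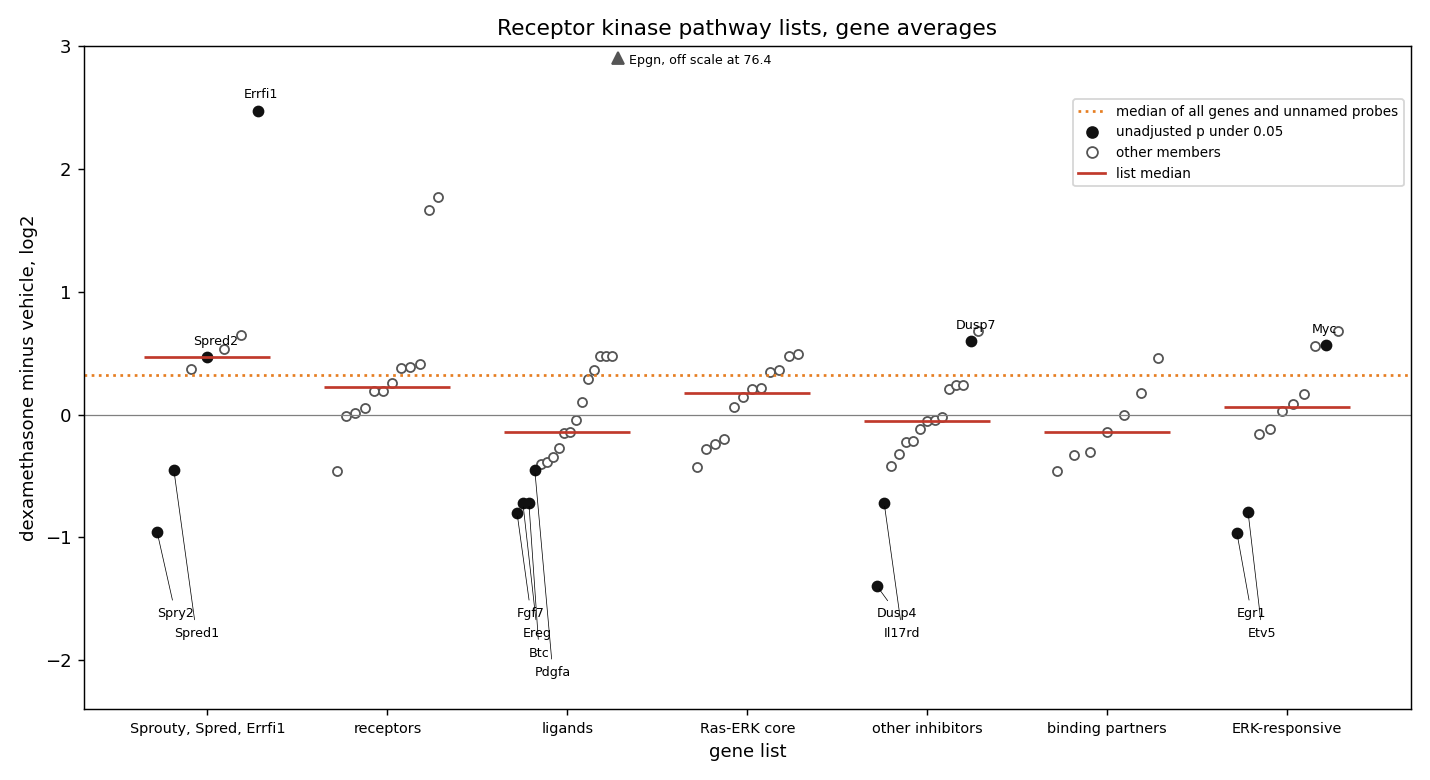
The vertical axis gives the dexamethasone minus vehicle difference of each gene in log2 units, grouped by list along the horizontal axis; filled points have an unadjusted limma p under 0.05, red lines are list medians and the dotted line is the median of all genes and unnamed probes at 0.32. Errfi1 at 2.47 is the highest filled point, Dusp4 at -1.40 the lowest, and the ligand gene Epgn, whose dexamethasone 3 value exceeded 100 in size, is off the scale at 76.4.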

How the data were processed

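Transcripts of 6 cultures were measured on 6 two-colour arrays, grouped by sample title. The submitters' processing notes name limma and no version; how the authors corrected background and normalized is not given in the sources used. The deposited values were read as log2 ratios from their form. Because 4 columns hold deposited values beyond 100 in size, their unit was recorded as a score. Direction was judged from known targets.

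Of 38467 probes, 29456 had 1 symbol in the platform annotation. Symbols were checked through Entrez identifiers, which altered 0 of 28735. Probes were tested singly and as gene averages with at least 2 values per group, in R 4.3.3 with limma 3.58.1 (lmFit, eBayes, two-sided, Benjamini-Hochberg over all rows at 0.05). SE is moderated. The test was tried on simulated data. Few arrays limit the precision; the labels call them biological replicates. The dim-spot filter left out 15355 probes that on at least 1 array were missing, exceeded 10 in size, or equalled (within 0.0005) the log2 of a quotient of integers no larger than 10. It used no spot intensities, so a probe called dim in the text need not be dim. Named genes were the members, the 3 smallest p of each pathway list, known targets and the 3 nearest profiles. The members, lists, filter and array sets were chosen with earlier results of these data known. Alternatives were a replicate block, centring, quantile normalization, filters, array weights, an array-set block and leaving out arrays.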

Additional observations from a re-analysis of the deposited data

How the results depend on the processing

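Over 386 combinations of a member gene or probe with a tested setting, 381 kept the direction of the difference. Array sets A and B taken alone are not among the 386. These combinations are not independent. Several settings, such as the replicate block, leave a difference unchanged, and Spry2, Spry4 and Spred3 count both as a gene and as their only probe. The reversals, none of them passing, were Spred3 and its probe at -0.085 and Spry1 mMC009886 at -0.16 after quantile normalization, and Spry1 mMA031837 at -0.022 and Spred2 mMC020465 at -0.019 after median centring. In the sets taken alone the direction also reversed for some. Within array set A, Spred3 stood at -0.34 (-0.335 for its probe) and Errfi1 mMC008012 at -0.32, and within set B Spred1 mMC019060 stood at 0.01 (0.0085). Spred1 as a gene was -0.31 in set A. The count of genes passing limma was 29 without dim probes, 5 with only probes measured on all arrays and 10 after centring the probes left by the filter. That last setting, and the array-set block and leave-one-out fits on filtered probes, were chosen after seeing the data. For single probes the counts were 44, 2 and 12, and 1 with over-10 values set to missing. Leaving out 1 array gave 0 genes, and 0 to 140 probes, with 140 without dexamethasone 1. After the filter, without dexamethasone 1, they were 934 of 17152 genes and unnamed probes and 1297 of 23112 single probes. In those fits Errfi1 as a gene passed at 3.24 (limma adjusted p = 0.0460) and Spred2 mMR030017 passed with a limma adjusted p of 0.0499. Of the pathway list genes, 3 of 67 passed there. Without dexamethasone 2 there were 5 genes and 3 probes, and without dexamethasone 3 or any 1 vehicle array, or with the array-set block, 0 genes and 0 probes passed after the filter. Both dexamethasone arrays left without dexamethasone 1 belong to set B, so part of the contrast there is also one between the sets. With the replicate block 0 genes passed, and Errfi1 mMC022390 had an adjusted p of 0.695. Same-numbered arrays had deviations correlated at 0.284, -0.123 and 0.255 for replicates 1, 2 and 3. Replicates 1 and 3 each lie within 1 array set, whereas replicate 2 spans both. These values therefore cannot show whether the numbers pair the samples. Errfi1 mMC022390 had adjusted p of 0.668 after median centring, 0.785 after quantile normalization, 0.167 with array weights and 0.286 with the array-set block. The cause of these changes was not tested. Spot intensities were not used here, so signal over background is unknown for each member.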
